A study of Mus musculus with 9 samples.

Results

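Genes for mitochondrial protein import and for the chaperones and proteases that look after imported proteins were examined in hearts of mouse embryos at E10.5, in some of which the gene for CTCF, a DNA-binding protein that organizes chromatin, carried floxed alleles and a cardiac Cre driver. The set holds every gene of the expression table whose symbol starts with Timm or Tomm and a number (20 genes) and 23 further genes named one by one, 43 of the 14011 genes in all. By role, 27 belong to the import complexes, 12 are chaperones and proteases, and 4 are membrane scaffolds. RNA was sequenced from 3 libraries of each genotype, and each library came from a pool of 6 hearts. Homozygotes were *Ctcf* fl/fl; *Nkx2.5-Cre*/+ and heterozygotes *Ctcf* fl/+; *Nkx2.5-Cre*/+, so both carried the Cre driver, which recombines the floxed allele in cardiac progenitor cells and their descendants. Controls had no Cre and are labeled *Ctcf* fl/fl, while the study's methods give them as *Ctcf* fl/+. The columns used for them are named Het in the table and those of the heterozygotes DH, read here as the double heterozygotes of the growth protocol, so every control and heterozygote value rests on that reading. A comparison with controls therefore also includes the driver, whereas the comparison of homozygotes with heterozygotes does not. All embryos were of mixed strain, and whole hearts include cells in which the driver is not active, such as the endocardium.

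Nearly all mitochondrial proteins are encoded in the nucleus, made in the cytosol and imported. The TOM complex is the gate in the outer membrane, SAM inserts barrel-shaped proteins into that membrane, small TIM chaperones carry hydrophobic precursors across the space between the membranes, and the TIM23 and TIM22 complexes take proteins into or across the inner membrane. In the matrix a motor built around the chaperone HSPA9 pulls the chain in, the processing peptidase removes its targeting sequence, a chaperonin folds it, and proteases such as LONP1 remove what fails to fold. Heart muscle is rich in mitochondria, and the amount and shape of cardiomyocyte mitochondria change as the embryonic heart matures.

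The deposited values are reads scaled to the size of each library, and from 85 to 8293 reads per library stood behind the value of a member. The control libraries held 8457617, 9654014 and 6698891 reads in total, against 9896345, 7946683 and 4294537 for the heterozygotes and 4437234, 6139084 and 11629365 in homozygote replicates 1, 2 and 3, and values are given in these orders throughout. Differences were tested on the log2(value + 0.5) scale with limma across all 14011 genes, and a gene was called when its Benjamini-Hochberg adjusted p was under 0.05. With 3 libraries against 3, an exact permutation test of a single gene could not go below 0.10. *Ctcf* itself was at 121, 122 and 122 in controls, 101, 94.2 and 97.0 in heterozygotes and 79.6, 80.0 and 84.7 in homozygotes (log2 fold change of homozygotes against controls -0.57, standard error 0.06, limma adjusted p = 2.91e-05). Cardiomyocyte markers had a summed value of at least 13816 in every library, and macrophage markers one of at most 18.1. The first control library carried liver and endoderm RNA, with *Afp* at 595 against at most 55.6 in the 8 other libraries. In RNA from whole hearts, fewer cells of a type and less RNA per cell cannot be told apart.

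Several members start close to a gene read in the opposite direction. The stretches between the start sites are shown for the 4 such pairs to which the results below return, because both genes of a pair leave from the same short piece of DNA. They are from the NCBIM37 genome, on the strand of the member named first, with GENCODE M1 start sites. For *Hspd1* the start used is that of its full-length transcript, since partial transcripts of the gene begin further upstream, inside *Hspe1*, and their gene models overlap there. Capitals mark CCGGAAG or its reverse complement CTTCCGG, the core bound by GABP (an ETS factor also known as NRF-2), and in the chaperonin pair also the heat shock element on either strand (GAA, TTC and GAA with 2 free bases between neighbours), which overlaps the GABP core there.
*Timm8b* and *Sdhd*, chr9:50411955-50412005, plus strand: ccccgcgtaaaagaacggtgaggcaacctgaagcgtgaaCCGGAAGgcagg
*Timm23* and *Parg*, chr14:33015085-33015134, minus strand: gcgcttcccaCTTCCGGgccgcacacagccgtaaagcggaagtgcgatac
*Timm17b* and *Pqbp1*, chrX:7476396-7476482, plus strand: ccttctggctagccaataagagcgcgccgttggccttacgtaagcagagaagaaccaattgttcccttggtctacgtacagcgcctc
*Hspe1* and *Hspd1*, chr1:55144869-55144975, plus strand: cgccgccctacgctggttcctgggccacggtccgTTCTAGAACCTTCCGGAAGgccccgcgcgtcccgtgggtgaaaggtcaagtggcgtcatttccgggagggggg
No such motif lies in the stretch between *Timm17b* and *Pqbp1*, which says only that these letters are not in this window.

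Homozygotes had more RNA than controls for some members, mainly import genes, while most genes of each class were not called. Of the 43 members, 10 were called in homozygotes against controls, all of them higher, which is 23.3% of the members. Over all genes tested, 15.2% were called, 7.19% higher and 8.03% lower. At an unadjusted p under 0.05 there were 20 members, beside 29.6% of all genes. The 10 comprised 8 of the 27 import genes (*Timm8b*, *Timm10*, *Timm23*, *Tomm20*, *Tomm5*, *Timm17b*, *Grpel1* and *Samm50*), 1 of the 12 chaperones and proteases (*Hspe1*) and 1 of the 4 scaffolds (*Chchd3*). Without the third control library 6 members were called. Without the first, which carried the liver RNA, 10 were. At an adjusted p under 0.01 there were 5.

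Against heterozygotes, 12 members were called, 8 higher and 4 lower, beside 13.6% of all genes, 6.87% higher and 6.7% lower. At an unadjusted p under 0.05 there were 19 members, beside 27.6% of all genes. The higher members were *Tomm20*, *Tomm7*, *Tomm5*, *Timm8b*, *Timm10*, *Timm23*, *Hspe1* and *Chchd3*, and the lower ones were *Hspd1*, *Lonp1*, *Pmpcb* and *Timm44*. Both comparisons use the same 3 homozygote libraries. The number of calls fell to 6 without the first or without the second heterozygote library, to 7 without homozygote replicate 2 and to 4 without homozygote replicate 3.

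**Figure D1:**
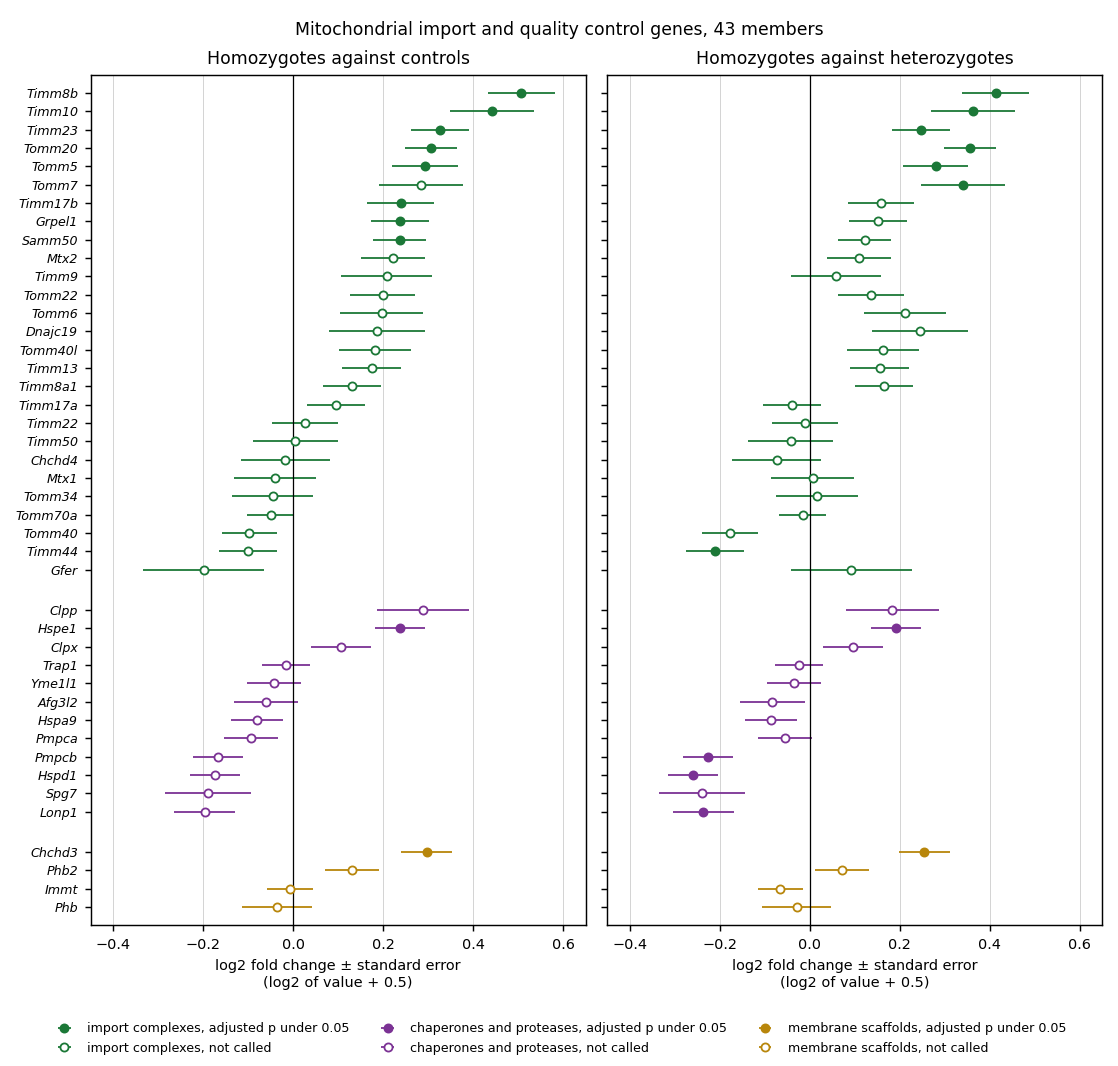
Log2 fold change of each of the 43 members (points) with its standard error (bars), grouped by class and ordered by the change against controls, for homozygotes against controls (left) and against heterozygotes (right). Filled points have an adjusted p under 0.05. Changes against controls run from -0.20 (*Gfer*) to 0.51 (*Timm8b*), and all 10 filled points on the left lie above 0, while 4 of the 12 on the right lie below it.

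Of the 9 genes whose symbol starts with Tomm, 2 were called higher than in controls and 3 higher than in heterozygotes. Over all genes 7.19% and 6.87% were, and 14.6% of genes with an exonic length under 2000 bases were called higher than in controls. With the trend over gene length removed, as described below, 1 of the 9 was called in each comparison, *Tomm20*. *Tomm20* (ENSMUSG00000058779, chr8:129458043-129469723), the receptor that first binds targeting sequences and one of the proteins the study probed on blots, was at 180.0, 169.6 and 161 in controls, 162, 161 and 170.1 in heterozygotes and 204, 210.5 and 217 in homozygotes. All homozygote libraries lay above all others. Its log2 fold change was 0.31 against controls and 0.36 against heterozygotes (standard error 0.06 for each, limma adjusted p = 0.00358 and 0.00163), and both calls remained in each of the 22 alternatives tried. Per kilobase of exon, *Tomm20* had the highest level of the import genes, with a control mean of 121.

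*Tomm5* and *Tomm7*, small subunits that help hold the TOM channel together, were also higher. *Tomm5* was at 56.3, 60.2 and 50.7 in controls, 53.9, 55.8 and 58.7 in heterozygotes and 68.9, 67.4 and 68.3 in homozygotes. Again no homozygote library overlapped another group, with log2 fold changes of 0.29 (limma adjusted p = 0.016) and 0.28 (limma adjusted p = 0.0219). The call against controls was lost without the third control library (adjusted p = 0.0796), and the call against heterozygotes without the first or the second heterozygote library (0.078 and 0.0618) or without homozygote replicate 1 or 3 (0.0515 and 0.0651). *Tomm7* was at 65.1, 66.3 and 50.8 in controls, 56.4, 61.6 and 56.2 in heterozygotes and 71.0, 72.5 and 77.4 in homozygotes. Its libraries did not overlap either, yet against controls, where the third control library was well below the others, it was not called (log2 fold change 0.28, adjusted p = 0.0552). Against heterozygotes it was (0.34, limma adjusted p = 0.0283), except without the first or the third heterozygote library (0.083 and 0.0886) or without homozygote replicate 2 or 3 (0.0585 and 0.103).

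The channel itself was not called. *Tomm40*, which forms the pore, was at 86.5, 86.1 and 85.7 in controls, 87.3, 90.4 and 95.8 in heterozygotes and 85.5, 77.9 and 78.2 in homozygotes. Homozygotes were lowest, below every library of both other groups, but the differences missed the threshold (log2 fold changes -0.10 and -0.18, limma adjusted p = 0.325 and 0.0733). *Tomm70a*, the receptor for carrier proteins, was at 208 to 226 over all 9 libraries, and the ratio of *Tomm20* to *Tomm70a* was 0.763 ± 0.048 in controls, 0.754 ± 0.00124 in heterozygotes and 0.977 ± 0.0351 in homozygotes (mean ± SD, n = 3), with no overlap. The other members, *Tomm22*, *Tomm6*, *Tomm40l* and *Tomm34*, gave log2 fold changes against controls from -0.05 (*Tomm34*) to 0.20 (*Tomm22*), none called.

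In the sorting and assembly machinery, *Samm50*, the core of SAM, was at 118, 115 and 117 in controls, 121, 136 and 122 in heterozygotes and 135, 141 and 136 in homozygotes. Homozygotes lay above controls and overlapped heterozygotes, with 1 heterozygote library at the level of the homozygotes. It was called against controls (log2 fold change 0.24, standard error 0.06, limma adjusted p = 0.0158), though not without the third control library (0.0522), and not against heterozygotes (0.12, adjusted p = 0.196). Its partners, the metaxins *Mtx1* and *Mtx2*, had log2 fold changes against controls of -0.04 and 0.22 (adjusted p = 0.817 and 0.0519).

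On the scale of the deposited values, the small TIM chaperones *Timm8b* and *Timm10*, of the space between the membranes, had the largest log2 fold changes of the set in both comparisons. With the length trend removed, *Gfer*, which was not called, had a larger change in size against controls (-0.28), and several members had larger ones against heterozygotes. *Timm8b* (ENSMUSG00000039016, chr9:50412006-50413425) was at 41.3, 47.2 and 42.2 in controls, 48.9, 47.1 and 43.5 in heterozygotes and 63.2, 60.8 and 61.9 in homozygotes. Homozygotes were well clear of both groups, and their mean was 42.4% above that of controls. Its log2 fold change was 0.51 against controls and 0.41 against heterozygotes (standard error 0.07 for each, limma adjusted p = 0.000756 and 0.00325). With the length trend removed these were 0.27 (limma adjusted p = 0.0205) and 0.20 (0.0796), the latter not called. *Sdhd*, the subunit of succinate dehydrogenase that starts 51 bases away in the other direction (first sequence above), was at 247, 251 and 243 in controls, 268, 278 and 282 in heterozygotes and 273, 288 and 272 in homozygotes. *Timm8b* was highest in homozygotes, whereas *Sdhd* was lowest in controls and its homozygote and heterozygote libraries overlapped (log2 fold change 0.17 against controls, limma adjusted p = 0.0411, and 0.01 against heterozygotes, adjusted p = 0.944). The difference between the pair was not tested.

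*Timm10* (ENSMUSG00000027076), which pairs with *Timm9* in the ring that escorts carrier proteins, was at 25.5, 24.9 and 22.4 in controls, 24.96, 23.9 and 28.3 in heterozygotes and 31.2, 35.1 and 33.1 in homozygotes. No homozygote library overlapped another group. Both calls were made, with log2 fold changes of 0.44 (standard error 0.09, limma adjusted p = 0.00765 for controls) and 0.36 (limma adjusted p = 0.022 for heterozygotes), the latter not without the first or second heterozygote library (0.0691 and 0.0845) or homozygote replicate 2 or 3 (0.0726 and 0.0661). *Timm9* was at 20.4, 26.4 and 25.1 in controls, 27.2, 27.3 and 25.03 in heterozygotes and 27.4, 28.0 and 27.4 in homozygotes and was not called (0.21, adjusted p = 0.186). *Timm13* and the Timm8 protein *Timm8a1*, of the second ring, had log2 fold changes against controls of 0.17 and 0.13 (adjusted p = 0.0865 and 0.195), in each case with all homozygote libraries above the highest control. The ratio of *Timm8b* to its ring partner *Timm13* was 0.656 ± 0.038 in controls, 0.691 ± 0.0128 in heterozygotes and 0.828 ± 0.00758 in homozygotes (mean ± SD, n = 3), again with no overlap. The ratio of *Timm10* to *Timm9* overlapped between the groups, at 1.25, 0.942 and 0.895 in controls, 0.917, 0.875 and 1.13 in heterozygotes and 1.14, 1.25 and 1.21 in homozygotes. Ratios between partners were chosen after the values were seen and are given without a test. Of the 12 computed, those of *Timm10* to *Timm9*, *Pmpca* to *Pmpcb* and *Phb2* to *Phb* overlapped between homozygotes and controls, and that of *Clpp* to *Clpx* overlapped between homozygotes and heterozygotes.

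The enzymes that oxidize the small TIM proteins so that they stay in this space were not called. *Chchd4*, the oxidoreductase, was at 43.2, 40.9 and 33.3 in controls, 41.5, 40.2 and 39.8 in heterozygotes and 36.9, 36.5 and 42.2 in homozygotes, and *Gfer*, which regenerates it, was at 26.5, 24.5 and 24.5 in controls, 24.96, 17.3 and 19.7 in heterozygotes and 23.3, 18.5 and 24.1 in homozygotes. Their log2 fold changes against controls were -0.02 and -0.20 (adjusted p = 0.934 and 0.354).

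Of the translocases of the inner membrane, the channel was called higher in both comparisons and its motor anchor in neither. *Timm23* (ENSMUSG00000013701, chr14:32993348-33015084), the channel, was at 147, 149.8 and 134 in controls, 149, 159 and 147 in heterozygotes and 169, 187 and 184 in homozygotes. The homozygotes did not overlap the other groups. It was called against controls in each of the 22 alternatives (log2 fold change 0.33, standard error 0.06, limma adjusted p = 0.00474). It was also called against heterozygotes (0.25, limma adjusted p = 0.0221), though not without the first or the third heterozygote library (0.0704 and 0.0779) or homozygote replicate 2 or 3 (0.0729 and 0.0762). *Parg*, 50 bases away on the other strand and an enzyme of poly-ADP-ribose breakdown, was at 53.0, 49.6 and 48.8 in controls and 47.1, 49.3 and 47.7 in homozygotes (log2 fold change -0.07, adjusted p = 0.553).

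*Timm44*, which ties the motor to the channel, was lower than in heterozygotes. It was at 64.3, 69.7 and 68.6 in controls, 69.3, 75.2 and 74.4 in heterozygotes and 61.2, 62.4 and 65.4 in homozygotes. Homozygotes lay below heterozygotes and overlapped controls. It was called against heterozygotes (-0.21, standard error 0.06, limma adjusted p = 0.0455), and the adjusted p passed 0.05 in 8 of the 9 fits that leave out 1 library (0.0553 to 0.141), all but the one without the first heterozygote library. In all, 16 of the 22 alternatives lost the call, among them edgeR, voom and DESeq2 (adjusted p = 0.183). The ratio of *Timm23* to *Timm44* was 2.13 ± 0.172 in controls, 2.08 ± 0.0911 in heterozygotes and 2.86 ± 0.129 in homozygotes (mean ± SD, n = 3).

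*Timm17b*, a partner of the channel, was at 36.6, 39.5 and 41.2 in controls, 42.4, 41.8 and 39.8 in heterozygotes and 48.5, 44.3 and 45.9 in homozygotes. Homozygotes were above both groups, but the call against controls (0.24, standard error 0.07, limma adjusted p = 0.0442) was lost in 8 of the 9 fits without 1 library (adjusted p from 0.0511 to 0.16), all but the one without the third heterozygote library. Of the 22 alternatives, 13 lost this call, DESeq2 among them (adjusted p = 0.171). *Pqbp1*, 87 bases away, was at 33.8, 34.7 and 33.1 in controls and 36.4, 34.9 and 35.4 in homozygotes (log2 fold change 0.07, adjusted p = 0.584). The paralog *Timm17a*, the receptor *Timm50* and the carrier translocase *Timm22* had log2 fold changes against controls of 0.10, 0.00 and 0.03, none called.

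Among the parts of the import motor, *Grpel1*, which makes HSPA9 release its nucleotide, was at 93.3, 87.4 and 85.7 in controls, 95.3, 90.6 and 96.8 in heterozygotes and 113, 99.4 and 103 in homozygotes. Homozygotes were above both groups, with log2 fold changes of 0.24 (standard error 0.06, limma adjusted p = 0.0249) and 0.15 (adjusted p = 0.141). The call was lost without the second or the third control library (0.0712 and 0.0993) or homozygote replicate 1 or 3 (0.082 and 0.052). DESeq2 (adjusted p = 0.0527) and limma without the trend (adjusted p = 0.0748) did not make it either. *Dnajc19*, the J-protein that triggers HSPA9 at the channel and the import gene with the lowest level per kilobase of exon (control mean 7.04), was at 31.8, 27.1 and 25.5 in controls, 28.4, 23.3 and 29.4 in heterozygotes and 31.0, 33.3 and 31.7 in homozygotes. It overlapped controls and was not called (0.19, adjusted p = 0.273).

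*Hspa9*, the chaperone at the center of the motor, which the study also followed as a protein, was not called. It was at 574, 576 and 584 in controls, 551, 575 and 616 in heterozygotes and 533, 570.1 and 537 in homozygotes. All homozygote libraries were below the lowest control, by a margin smaller than their own spread, and they overlapped heterozygotes (log2 fold changes -0.08 and -0.09, limma adjusted p = 0.384 and 0.361).

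**Figure D2:**
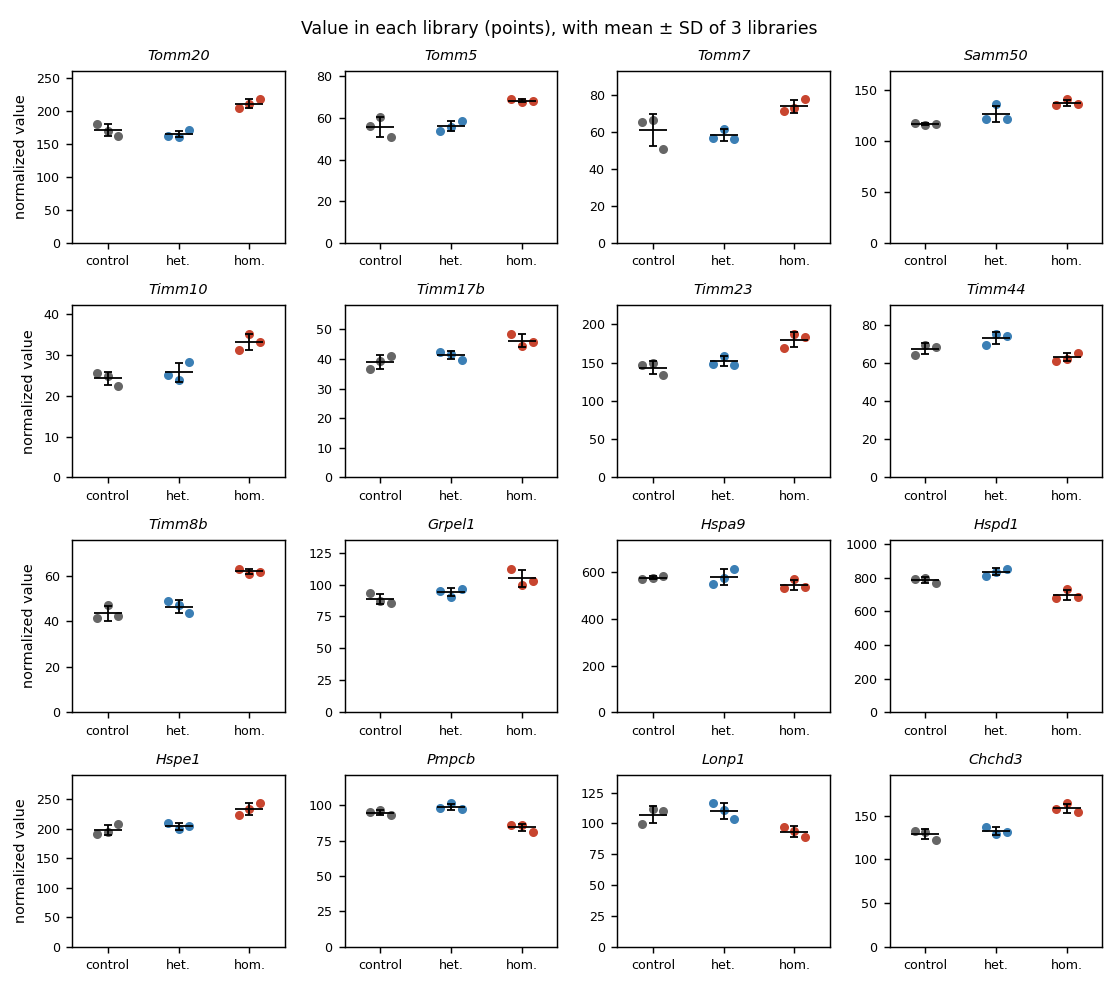
Normalized value (vertical axes, from 0) in each of the 9 libraries (points) for the 15 members called in at least 1 comparison and *Hspa9*, with the mean ± SD of each group of 3 (black). The 3 homozygote libraries sit above the 6 others for *Tomm20*, *Tomm5*, *Tomm7*, *Timm8b*, *Timm10*, *Timm17b*, *Timm23*, *Grpel1*, *Hspe1* and *Chchd3*, and below them for *Hspd1*, *Pmpcb* and *Lonp1*.

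The chaperonin and its lid, which work as a single machine, changed in opposite directions against heterozygotes. *Hspd1* (ENSMUSG00000025980, chr1:55134679-55145087, minus strand) encodes the folding barrel and had the highest level per kilobase of exon of all members, with a control mean of 298. It was at 796, 798 and 767 in controls, 813, 838 and 855 in heterozygotes and 678, 733 and 684 in homozygotes. Homozygotes were below all other libraries. The log2 fold change was -0.26 against heterozygotes (standard error 0.06, limma adjusted p = 0.00889), a call kept in each of the 22 alternatives, and -0.17 against controls (adjusted p = 0.0523), which missed the threshold.

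*Hspe1* (ENSMUSG00000073676, chr1:55144976-55148151, plus strand) encodes the lid and leaves from the same stretch of DNA in the other direction. It was at 192, 194 and 208 in controls, 209.9, 199 and 204 in heterozygotes and 224, 233 and 243 in homozygotes. Here homozygotes were above all other libraries, with log2 fold changes of 0.24 (standard error 0.06, limma adjusted p = 0.0122) and 0.19 (limma adjusted p = 0.0381) against controls and heterozygotes. The first call was lost without homozygote replicate 3 (0.0525), and the second without the first control library, any of the heterozygote libraries or homozygote replicate 2 or 3 (0.0509 to 0.137). The ratio of *Hspe1* to *Hspd1* was 0.241, 0.243 and 0.271 in controls, 0.258, 0.237 and 0.239 in heterozygotes and 0.33, 0.318 and 0.356 in homozygotes. The lowest homozygote ratio was above the highest of the other libraries, and the homozygote mean was 1.33 times the control mean. A ratio within a library does not depend on how that library was scaled, but the trend over gene length described below was not removed from it. In each ratio whose values are printed here, the first gene has the shorter exonic length (1474 bases for *Hspe1* and 2642 for *Hspd1*). *Trap1*, a mitochondrial relative of the cytosolic HSP90 chaperones, was at 106 to 113 in all 9 libraries.

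The gene models of this pair overlap by 112 bases on opposite strands, because of the partial *Hspd1* transcripts, and the printed stretch lies within the outer bounds of the *Hspd1* model. Whether reads were counted by strand is not given in the sources used here, so reads from that stretch could not be assigned to 1 gene with certainty.

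**Figure D3:**
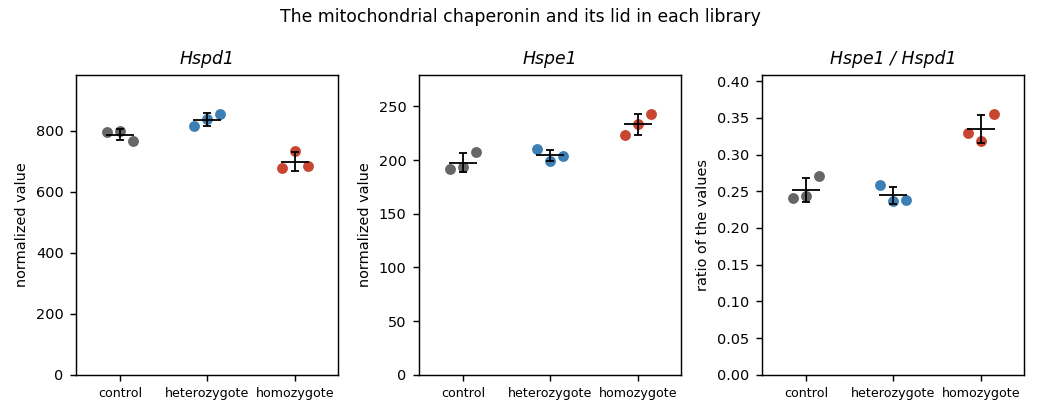
Normalized values of *Hspd1* and *Hspe1* and the ratio of *Hspe1* to *Hspd1* (vertical axes, from 0) in each of the 9 libraries (points), with the mean ± SD of each group of 3 (black). Homozygotes are lowest for *Hspd1* (678 to 733), highest for *Hspe1* (224 to 243) and highest for the ratio (0.318 to 0.356).

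A subunit of the processing peptidase and a matrix protease were lower than in heterozygotes. *Pmpcb*, the catalytic subunit that cuts off targeting sequences, was at 95.04, 96.4 and 92.8 in controls, 97.7, 101 and 97.0 in heterozygotes and 86.0, 85.7 and 81.4 in homozygotes. Homozygotes were below both groups. The difference was called against heterozygotes (-0.23, standard error 0.06, limma adjusted p = 0.0175), though not without the second heterozygote library (0.0663) or homozygote replicate 3 (0.0723), and not against controls (-0.17, adjusted p = 0.0586). DESeq2 (adjusted p = 0.0542) and limma without the trend (adjusted p = 0.0519) did not call it against heterozygotes. *Pmpca*, which binds the substrate, had a log2 fold change of -0.09 against controls and was not called.

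*Lonp1*, the protease that degrades misfolded and oxidized matrix proteins, was at 99.3, 112 and 110.3 in controls, 116, 111 and 103 in heterozygotes and 97.1, 94.2 and 88.8 in homozygotes. Every homozygote library was below the others. It was called against heterozygotes (-0.24, standard error 0.07, limma adjusted p = 0.0343) but not without the first or second heterozygote library (0.125 and 0.0905) or homozygote replicate 2 or 3 (0.0657 and 0.126), and it missed the threshold against controls (-0.20, adjusted p = 0.0675).

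Neither subunit of the other matrix protease, CLPXP, was called. *Clpp*, its cutting subunit, was at 31.0, 32.4 and 28.9 in controls, 34.6, 37.7 and 27.8 in heterozygotes and 38.5, 37.8 and 36.6 in homozygotes, above controls but not called (0.29, adjusted p = 0.0755). *Clpx*, the unfoldase that feeds it and the chaperone or protease gene with the lowest level per kilobase of exon (control mean 12.5), was at 44.8, 43.4 and 43.3 in controls, 44.5, 43.8 and 44.2 in heterozygotes and 49.6, 46.1 and 46.0 in homozygotes. It was above both groups, whereas *Clpp* overlapped heterozygotes, and was not called (0.11, adjusted p = 0.314). The proteases of the inner membrane, *Afg3l2*, *Spg7* and *Yme1l1*, had log2 fold changes against controls from -0.19 (*Spg7*) to -0.04 (*Yme1l1*), none called.

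Of the 4 scaffolds, 1 was called, in both comparisons, beside 7.19% and 6.87% of all genes called higher. *Chchd3* (ENSMUSG00000053768, chr6:32740976-33010260), a subunit of the MICOS complex that shapes cristae and also contacts SAM, was at 132, 132 and 122 in controls, 137, 129 and 132 in heterozygotes and 157, 164 and 154 in homozygotes. Homozygotes were clear of both groups, with log2 fold changes of 0.30 (standard error 0.06, limma adjusted p = 0.00405) and 0.25 (limma adjusted p = 0.0109). *Immt*, the large MICOS subunit, was at 265 to 293 over all 9 libraries, and the ratio of *Chchd3* to *Immt* was 0.474 ± 0.0317 in controls, 0.468 ± 0.0249 in heterozygotes and 0.585 ± 0.0168 in homozygotes (mean ± SD, n = 3), with no overlap. The prohibitins *Phb* and *Phb2*, which form rings in the inner membrane, had log2 fold changes against controls of -0.04 and 0.13 (adjusted p = 0.804 and 0.161), and per kilobase of exon the scaffolds ranged from a control mean of 44.0 (*Chchd3*) to one of 58.3 (*Phb2*).

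The classes are set side by side here without a test of the difference between them. *Hspa9*, *Pmpca* and *Pmpcb* are counted with the chaperones and proteases, and *Grpel1* and *Dnajc19* with the import complexes. The first 3 had log2 fold changes against controls of -0.08, -0.09 and -0.17, so the class medians depend on that assignment. The median log2 fold change against controls was 0.19 for the import complexes and -0.07 for the chaperones and proteases, beside 0.00 for all genes. Relative to the mean of the controls, the median import gene stood at 0.18, 0.13 and 0.20 (log2) in the 3 homozygote libraries, 0.04, 0.03 and 0.07 in the heterozygote libraries and 0.01, 0.04 and -0.04 in the controls. The median chaperone or protease stood at -0.06, -0.02 and -0.13 in homozygotes, 0.03, 0.05 and 0.02 in heterozygotes and 0.00, 0.02 and 0.00 in controls. The homozygote libraries lay above all others for the first median and below all others for the second, although no chaperone or protease was called lower than in controls and 1 was called higher. Of the 27 import genes, 14 had all homozygote libraries above all controls and 2 had them below, and of the 12 chaperones and proteases 3 and 4 did, beside 16.6% and 16.5% of all genes. Summed over its genes, the import class had values from 1870 to 1990.0 in controls, 1964 to 2009 in heterozygotes and 2135 to 2198 in homozygotes, and the chaperone and protease class 2458 to 2484, 2483 to 2591 and 2294 to 2422.

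**Figure D4:**
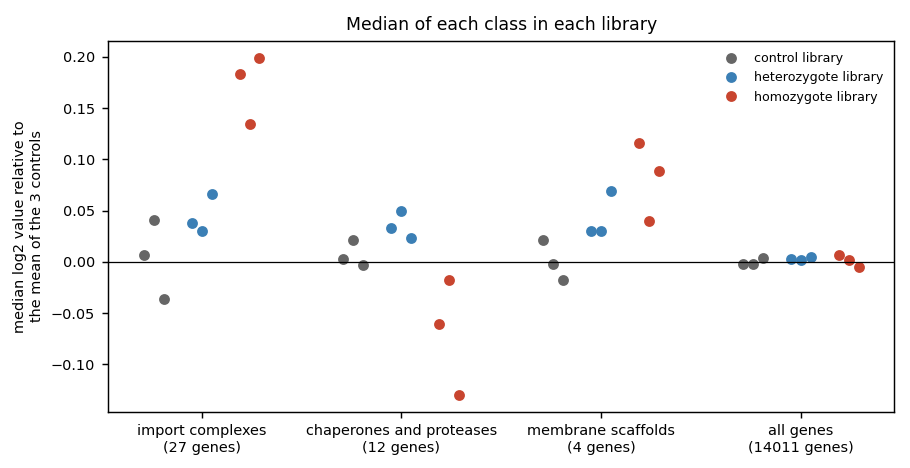
Median over the genes of each class of the log2 value relative to the mean of the 3 controls (vertical axis), 1 point per library. Homozygote points lie between 0.13 and 0.20 for the import complexes and between -0.13 and -0.02 for the chaperones and proteases, and all libraries lie within 0.01 of 0 for all genes.

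Gene length moved with these differences, and its part in them was not tested beyond the values given here. Short genes were more often called higher in homozygotes: 14.6% of the 2838 genes with an exonic length under 2000 bases were called higher than in controls and 2.47% lower, against 5.29% and 9.44% of the 11149 longer genes. Import genes are short (median exonic length 1775 bases, from 527 for *Timm8b* to 5953 for *Tomm70a*) and chaperones and proteases are longer (median 3290 bases). Spearman rho between exonic length and log2 fold change was -0.61 over the 43 members and -0.31 over the 13987 genes with a known length, given as a description. Among import genes under 2000 bases the median log2 fold change was 0.21 (15 genes, beside 0.12 for all such genes of the table), and among longer import genes it was 0.02 (12 genes, beside -0.03). Chaperones and proteases of 2000 bases or more had a median of -0.09 (10 genes, beside the same -0.03 of all such genes), and the 2 shorter ones, *Hspe1* and *Clpp*, had a median of 0.26.

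With the trend over length removed in each library, 7 members were called against controls. *Tomm20* (0.19, limma adjusted p = 0.039), *Timm23* (0.24, 0.024), *Timm8b* (0.27, 0.0205), *Grpel1* (0.22, 0.034) and *Chchd3* (0.26, 0.00824) were higher, and *Hspd1* (-0.22, 0.02) and *Lonp1* (-0.23, 0.0384) were lower. On that scale 5.52% of all genes were called higher and 5.32% lower. The calls of *Timm10* (0.26, limma adjusted p = 0.0967), *Timm17b* (0.19, 0.118), *Samm50* (0.14, 0.149), *Hspe1* (0.13, 0.167) and *Tomm5* (0.12, 0.281) were lost, and the medians of the classes became 0.057 for the import complexes and -0.08 for the chaperones and proteases. Against heterozygotes 5 members were called on it, *Tomm20* and *Chchd3* higher and *Hspd1*, *Pmpcb* and *Lonp1* lower, beside 5.8% and 5.51% of all genes. *Hspd1* and *Hspe1* stayed on opposite sides of 0 (-0.22 and 0.13 against controls), the latter no longer called.

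**Figure D5:**
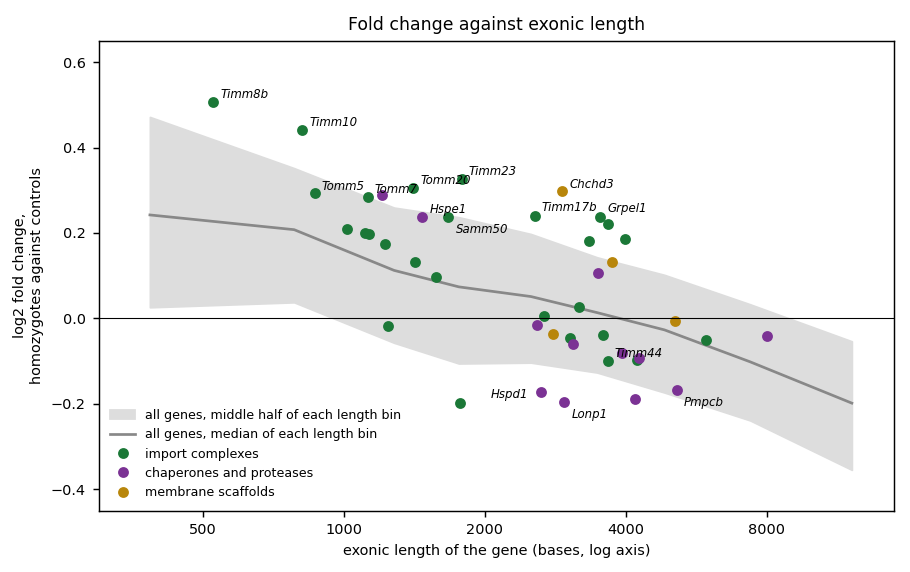
Log2 fold change of homozygotes against controls (vertical axis) against exonic length in bases (horizontal log axis) for the 43 members (colored points; called members named), with the median (line) and the quartiles (grey band) of all genes in bins of length. The line falls from 0.24 in the shortest bin to -0.20 in the longest, and 13 members lie above the upper quartile of their bin, among them *Timm8b*, *Timm10*, *Timm23*, *Tomm20* and *Chchd3*, while *Gfer*, *Hspd1*, *Lonp1* and *Spg7* lie below the lower quartile of theirs.

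Between heterozygotes and controls no member was called. Of the 43 members 0 were called by limma, beside 0.143% of all genes (0.0928% higher and 0.05% lower), and 0 by edgeR, DESeq2 or voom. At an unadjusted p under 0.05 there was 1, *Gfer* (log2 fold change -0.29, limma adjusted p = 0.674), beside 7.37% of all genes. In 5 members, *Tomm40*, *Samm50*, *Timm17a*, *Hspd1* and *Pmpcb*, all heterozygote libraries lay above all controls, beside 7.41% of all genes, and 0 had them all below, beside 6.93%.

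Further genes of the same pathways were described from lists apart from the 43. Of 31 genes for import, for chaperones and proteases and for cristae, 7 were called against controls (22.6%, beside 15.2% of all genes), 6 higher and 1 lower. The higher ones were the outer membrane insertase *Mtch2* (139.8 ± 3.97 in controls and 174 ± 6.42 in homozygotes, mean ± SD, n = 3, limma adjusted p = 0.00219), the J-protein *Dnajc15* (34.4 ± 3.97 and 48.4 ± 2.49, 0.00372), the inner membrane protein *Romo1* (38.7 ± 1.27 and 50.9 ± 4.48, 0.0108), the inner membrane peptidase *Immp1l* (36.2 ± 3.66 and 49.9 ± 1.34, 0.00258), the MICOS subunit *Micos13*, named *2410015M20Rik* in the annotation (49.0 ± 2.06 and 69.9 ± 1.63, 0.00105), and *Grpel2*, a paralog of *Grpel1* (25.5 ± 1.19 and 31.7 ± 1.72, 0.0323). *Mipep*, a second processing peptidase of the matrix, was the lower one (34.9 ± 2.60 and 28.3 ± 1.67, 0.0368). With the length trend removed, *Dnajc15* (log2 fold change 0.49 before and 0.28 after, limma adjusted p = 0.0605 after) and *Romo1* (0.39 and 0.20, limma adjusted p = 0.135 after) were no longer called, the other 5 were, and *Dnajc11* (0.29, limma adjusted p = 0.00678) and *Agk* (-0.37, limma adjusted p = 0.0377) were called as well. In none of the 7 first named did homozygote and control libraries overlap. Against heterozygotes 5 of the 31 were called higher and 3 lower (25.8%, beside 13.6% of all genes). *Grpel2*, *Mipep*, *Dnajc11*, *Agk* and the cytosolic *Tcp1* below were named after their values were seen.

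Genes that respond when mitochondria or protein folding are disturbed were partly higher. Of 9 such genes, 3 were called higher than in controls and 6 higher than in heterozygotes, beside 7.19% and 6.87% of all genes, and 0 were called lower. *Chac1* and *Gdf15*, also on this list, are not in the expression table. *Atf4*, the transcription factor of the integrated stress response, was at 191, 179 and 159.7 in controls, 164, 188 and 183 in heterozygotes and 236, 244 and 278 in homozygotes (log2 fold change against controls 0.52, standard error 0.08, limma adjusted p = 0.00118). *Phgdh*, which starts serine synthesis, was at 121, 94.0 and 104, then 105, 101 and 107, then 151, 154 and 163 (0.56, limma adjusted p = 0.000572). *Trib3*, a pseudokinase, was at 13.2, 11.6 and 15.1, then 9.37, 15.7 and 12.1, then 23.3, 27.7 and 24.5 (0.89, limma adjusted p = 0.00313). Homozygotes did not overlap the other groups in any of the 3. *Asns*, *Atf5* and *Psat1*, enzymes of amino acid synthesis and a second stress factor, were called against heterozygotes and not against controls (limma adjusted p = 0.0136, 0.0159 and 0.0248). *Ddit3*, *Cebpb* and *Sesn2* were not called.

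Of the cytosolic chaperones, 1 of 14 was called against controls (7.14%, beside 15.2% of all genes), *Tcp1* (552 ± 11.1 in controls and 645 ± 34.6 in homozygotes, mean ± SD, n = 3, limma adjusted p = 0.0164), and a median log2 fold change of 0.07. Of the outer membrane channels *Vdac1*, *Vdac2* and *Vdac3* and the mitochondrial DNA factor *Tfam*, which do not belong to the import pathway, 0 of 4 were called, with log2 fold changes from -0.02 to 0.09.

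Markers of other cells moved between the same groups. Over all genes, 7.19% were called higher and 8.03% lower against controls, and 6.87% and 6.7% against heterozygotes. All 5 erythroid markers were called higher in homozygotes (log2 fold changes from 0.61 to 0.80), and their summed value was 24950 to 36589 in controls, 20249 to 34390 in heterozygotes and 44892 to 60100 in homozygotes. With the length trend removed, 2 of the 5 were called (median log2 fold change over the 5 of 0.60). Of the 5 epicardial markers 4 were called higher (summed values 378 to 432, 403 to 421 and 525 to 586). Of the 7 cardiomyocyte markers 2 were called lower than in controls, *Ryr2* (-1.13) and *Actn2* (-0.35), with summed values of 15158 to 17546 in controls, 17362 to 20216 in heterozygotes and 13816 to 16821 in homozygotes. Against heterozygotes, the comparison in which *Hspd1*, *Lonp1*, *Pmpcb* and *Timm44* were called lower, 4 of the 7 were called lower (*Myh6*, *Myh7*, *Actn2* and *Ryr2*), with a median log2 fold change of -0.51 and all 7 below 0, while all 5 erythroid and 4 of the 5 epicardial markers were called higher. Against controls, of 6 endothelial and endocardial markers 1 was higher and 1 lower, of 3 cushion mesenchyme markers 1 was lower, and of 3 macrophage markers and 4 liver and endoderm markers 0 were called. Their part in the results above was not tested.

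The GABP core CCGGAAG, searched on both strands, lies in the promoter window (a fixed stretch around the start, most of it before the start, RefSeq, GRCm38.p6) of 18 of the 39 members with a window, 46.2%, and of 18.9% of the 9579 genes of the table with one. By class it was in 9 of 25 import genes, 6 of 10 chaperones and proteases and 3 of 4 scaffolds, and it was in 6 of the 10 members called against controls and 12 of the 29 not called. Both genes of the chaperonin pair hold it in the stretch printed above, and so do *Timm8b* and *Timm23* in theirs. The heat shock element was in 3 of 39 members, *Timm9*, *Hspd1* and *Hspe1* (0.595% of genes of the table), the last 2 by the same printed letters. A core of the CTCF motif (CCA, AG and GGC with 2 free bases between neighbours, both strands) was in 2 of 39, *Clpx* and *Chchd3* (3.47% of genes of the table). A match of letters is a description and not a measured site. Windows were missing for *Tomm40l*, *Tomm7*, *Hspa9* and *Afg3l2*.

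Some members share sequence with other genes, so that reads may be split between them. Near-identical copies in the table exist for *Tomm20* (*Gm14494*), *Timm23* (*Gm10171*), *Timm8a1* (*Gm9797*) and *Phb* (*Gm7666*), and *Tomm6* shares exons with a longer model of *Prickle4*. *Gm14494*, a pseudogene of *Tomm20*, was at 14.6, 12.8 and 11.0 in controls and 16.9, 33.9 and 22.8 in homozygotes, so it too was higher (log2 fold change 0.87, limma adjusted p = 0.0108). *Gm10171* was at most at 2.42. With the values of each member and its copies added together, an alternative chosen after seeing the data, the log2 fold changes against controls were 0.36 for *Tomm20* (limma adjusted p = 0.00204) and 0.32 for *Timm23* (limma adjusted p = 0.00512), and 10 members were called. In the annotation, 12 members had at least 1 such copy. Copies that are not in the table were not analysed here, among them those of *Timm23*, *Hspd1*, *Tomm20*, *Timm17a*, *Phb*, *Dnajc19*, *Yme1l1* and *Tomm40l*.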

How the data were processed

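RNA was measured in 9 libraries of E10.5 hearts. The authors deposited 1 table of normalized signal values, made on the NCBIM37 transcriptome of Ensembl build 65. The submitters' processing notes name CASAVA 1.8, cutadapt 1.6.1, RSEM 1.20, Bowtie2 0.12.7 and limma. Each value was a whole read count plus 0.5 scaled by total reads times edgeR's TMM factor (0.955 to 1.03), and 100% of values gave whole reads, within 0.01 of a whole number. Control and heterozygote columns were assigned to genotypes by group, since their numbers match no sample title (control columns are named Het, heterozygote columns DH), and libraries are named by total reads or order. No gene was filtered out here; in all 14011, 3 or more libraries reached a value of 1.

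Log2(value + 0.5) was fitted with limma 3.58.1 (R 4.3.3) over all 9 libraries with a mean-variance trend and Benjamini-Hochberg adjustment. A self-test of the method was run on simulated data, and its outcome is not given here. The members and lists were chosen with earlier results of these data known. Per-library values are given for members called in any comparison, *Tomm20* and *Hspa9*, the members with the highest and lowest level per exonic length in the import and the chaperone and protease classes, a few others for comparison chosen after their values were seen, and at most 8 called genes of the further lists. Alternatives were other pseudocounts and low-value filters, only the groups compared, quantile normalization, edgeR 4.0.16, DESeq2 1.42.0 and voom on the recovered reads, limma without the trend, removal of the length trend, a replicate block, and leaving out each library. GENCODE M1 gave names and exonic lengths (13987 genes). Copies of members were sought with BLAST+ 2.17.0, requiring 95% identity along 50% of the shorter exonic sequence. Tables were made with Python 3.11.15. Counts of replicates were compared by chi-square and differed beyond sampling noise (3.34 to 7.37 per degree of freedom), and what separates the pools beyond their hearts is not given in the sources used here, so p-values measure the spread between pools.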

Additional observations from a re-analysis of the deposited data

How the results depend on the processing

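The balance of calls changed when the length trend was removed. Against heterozygotes it went from 8 members higher and 4 lower to 2 higher and 3 lower. Among chaperones and proteases against controls it went from 1 higher and 0 lower to 0 higher and 2 lower. Neither class median, and no fold change of the 15 called members and *Hspa9*, reversed its direction under the alternatives. For the other members, only the removal of the length trend was tabulated, and with it the log2 fold change against controls of 5 members that were not called changed sign: *Timm17a* (0.10 to -0.00), *Tomm70a* (-0.05 to 0.01), *Yme1l1* (-0.04 to 0.07), *Timm50* (0.00 to -0.04) and *Immt* (-0.01 to 0.03). For homozygotes against controls, the number of members called was 5 in limma without the trend, 5 at an adjusted p under 0.01, and between 6 and 12 when 1 library was left out, the lowest without the third control library. It was 13 with a mean value of at least 5, with quantile normalization and with voom. Against heterozygotes it was 4 without the trend, 5 with the length trend removed, 3 at an adjusted p under 0.01, and between 4 and 12 when 1 library was left out. The median log2 fold change of the import complexes was 0.057 with the length trend removed and 0.13 to 0.20 when 1 library was left out, and that of the chaperones and proteases ranged from -0.10 to -0.05 when 1 library was left out. The number of genes called in the further lists stayed between 8 and 12. The cause of these shifts was not tested, except that fewer libraries were fitted when 1 was left out.

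Samples of equal column number did not deviate together (r of deviations over genes at most 0.0851), so the numbers were not taken to pair the libraries. With a replicate block by that number, 9 members were called against controls, 9 against heterozygotes and 0 between heterozygotes and controls, and 10 genes of the further lists. Counted over each pairing of an alternative with a fold change of those 16 members, against controls or heterozygotes, a call was lost in 92 cases, gained in 13 and neither in 599. The smallest change of a member called against controls was 17.9% of the mean at this depth and number of pools (*Samm50*), so genes not called are not shown to be unchanged.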
